A study of Mus musculus with 12 samples.

Results

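The fatty acid uptake and binding genes are 9 genes chosen by name from the 50499 genes of the count table: Cd36, Slc27a1, Slc27a2 and Slc27a4, whose proteins bring long-chain fatty acids into the cell; Fabp1 and Fabp4, whose proteins bind them in the cytosol; Lpl and Vldlr, which act on the triglyceride of circulating lipoproteins; and Pparg, a nuclear receptor that binds fatty acids. The 9 genes were chosen with earlier results of these data known, so counts of them beside shares of all genes are a description. Of the 9, 8 passed the filter on low counts and were tested. Vldlr was listed at 0 in every library and was not tested. Its span (GRCm39, chr19:27190070-27231631, plus strand) lies wholly inside that of the predicted gene Gm35438 on the minus strand (chr19:27079071-27294098), and genes that lie inside another gene are at 0 throughout this table, so the 0 gives no level for Vldlr.

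RNA was sequenced from the livers of male C57Bl/6NCrl mice, wild type by the labels, in 12 libraries that form 4 groups of 3. From 6 weeks of age the mice ate chow and drank normal water, or ate a Western diet and drank sugar water, a regimen used to model metabolic dysfunction-associated steatohepatitis (MASH). After 12 weeks each mouse was given AAV8 particles by tail vein, either AAV8-TBG-Null or AAV8-TBG-siAATF, and the livers were taken after a further 12 weeks. TBG is a hepatocyte-directed promoter, so the vector acts on hepatocytes while the RNA came from whole liver. The groups are called chow null, chow siAATF, Western null and Western siAATF, and all 4 carry a vector. Replicates are numbered in the labels with no word on whether they are separate mice, so the p-values cover the spread between libraries, which may be technical.

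Fatty acids reach the liver as free acids from adipose tissue and inside lipoprotein remnants. CD36 and the SLC27 (FATP) proteins take up the free acids, the SLC27 proteins also coupling them to coenzyme A, while lipoprotein lipase releases fatty acids from triglyceride and the VLDL receptor takes up the particles. Inside the hepatocyte, FABP1 is the abundant fatty acid carrier, and FABP4 is better known from adipocytes, macrophages and capillary endothelium. PPARG is scarce in healthy hepatocytes and known to rise in fatty liver. With PPARA, the receptor that drives fatty acid oxidation, it binds direct repeats of a hexamer, AGGTCA, as a heterodimer with the retinoid X receptor. Cd36, Fabp1, Fabp4 and Lpl are textbook targets of these receptors.

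The promoters of Fabp1 and Cd36 are shown because both genes are classed as PPAR targets and the first did not pass the test on the diet while the second rose. RefSeq promoter windows on GRCm38.p6 (the counts are on GRCm39) matched 7 of the 9 members. Each window of 300 bases was searched on both strands for the hexamer AGGTCA and for its direct repeat with a spacer of 1 base, allowing at most 2 mismatches, and the 2 motifs can overlap. The 250 bases before each start are printed 5′ to 3′ on the gene's strand, with matches in capitals. The Fabp1 stretch is chr6:71199629-71199878, plus strand, and the Cd36 stretch is chr5:17835897-17836146, minus strand.
Fabp1: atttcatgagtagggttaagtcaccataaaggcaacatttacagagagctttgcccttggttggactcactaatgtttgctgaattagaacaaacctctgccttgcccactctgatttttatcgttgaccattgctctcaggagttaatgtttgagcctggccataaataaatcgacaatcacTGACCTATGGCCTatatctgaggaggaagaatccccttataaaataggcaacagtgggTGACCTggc
Cd36: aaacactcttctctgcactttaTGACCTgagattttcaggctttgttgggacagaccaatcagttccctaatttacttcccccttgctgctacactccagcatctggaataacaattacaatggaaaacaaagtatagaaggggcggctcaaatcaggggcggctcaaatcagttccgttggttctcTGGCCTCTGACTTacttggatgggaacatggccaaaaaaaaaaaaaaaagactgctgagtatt
The Fabp1 window held the hexamer at -67 and -9, both on the minus strand, counted from the last base before the start as -1, and the direct repeat at -67 with 1 mismatch. The Cd36 window held the hexamer at -228 and a direct repeat at -63 with 2 mismatches, again on the minus strand. Slc27a2 held the hexamer at -220, and of the 3 Pparg windows 2 held it, at -28 and -9, while the third held neither motif. The Slc27a1, Slc27a4 and Vldlr windows held neither motif. Over all 32851 windows, 16.3% held the hexamer, 3.86% the repeat with at most 2 mismatches and 0.0396% the exact repeat, so a match is a description of these letters only.

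Total counts ran from 1646853 to 13469819 per library, the 18S ribosomal RNA gene took 0.871% to 50.8% of them, and the floor of 3 counts corresponded to 0.185 to 1.69 CPM (counts scaled to library size with TMM factors). The 18S share was 25.2%, 30.4% and 4.28% in the chow null replicates and 5.80%, 14.4% and 2.84% in the Western null replicates. Aatf, the gene the vector targets, stood between 21.1 and 36.8 CPM in the 6 null libraries and between 24.6 and 40.5 CPM in the 6 labelled siAATF. The chow null replicates were at 36.8, 26.5 and 31.6 CPM and those labelled chow siAATF at 39.2, 24.6 and 40.5 CPM. Replicates of Western null were at 27.6, 21.1 and 30.0 CPM, those labelled Western siAATF at 27.0, 27.5 and 28.2 CPM, and the log2 difference was 0.06 ± 0.25 (SE; quasi-likelihood test of edgeR with Benjamini-Hochberg adjustment, adjusted p = 0.953). A fall of Aatf was thus not seen, and directions given for the vector follow the labels alone. Hepatocyte markers (14 genes) summed to between 57658 and 121653 CPM in each library.

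All 3 Western siAATF libraries stood apart in some way. Replicate 2 had the highest 18S share of the 12 libraries, 50.8%, and replicate 3 the lowest, 0.871%. Replicate 3 had the highest level of all 12 libraries for 6 of the 8 tested members and the lowest for Pparg, whereas 12.7% of all tested genes were highest there and 12.7% lowest. Replicate 1 held reads of skeletal muscle markers: 7 of 8 were counted, with a summed level of 2850 CPM. In replicate 2, 7 of 8 were counted as well, at a summed level of 4.77 CPM. The sum was at most 0.836 CPM in the other 10 libraries. Myh4, a fast muscle myosin, stood at 877 CPM in replicate 1, and Mylpf was at 0. Results for this group are given with and without replicates 1 and 3, and in part without replicate 2.

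**Figure D1:**
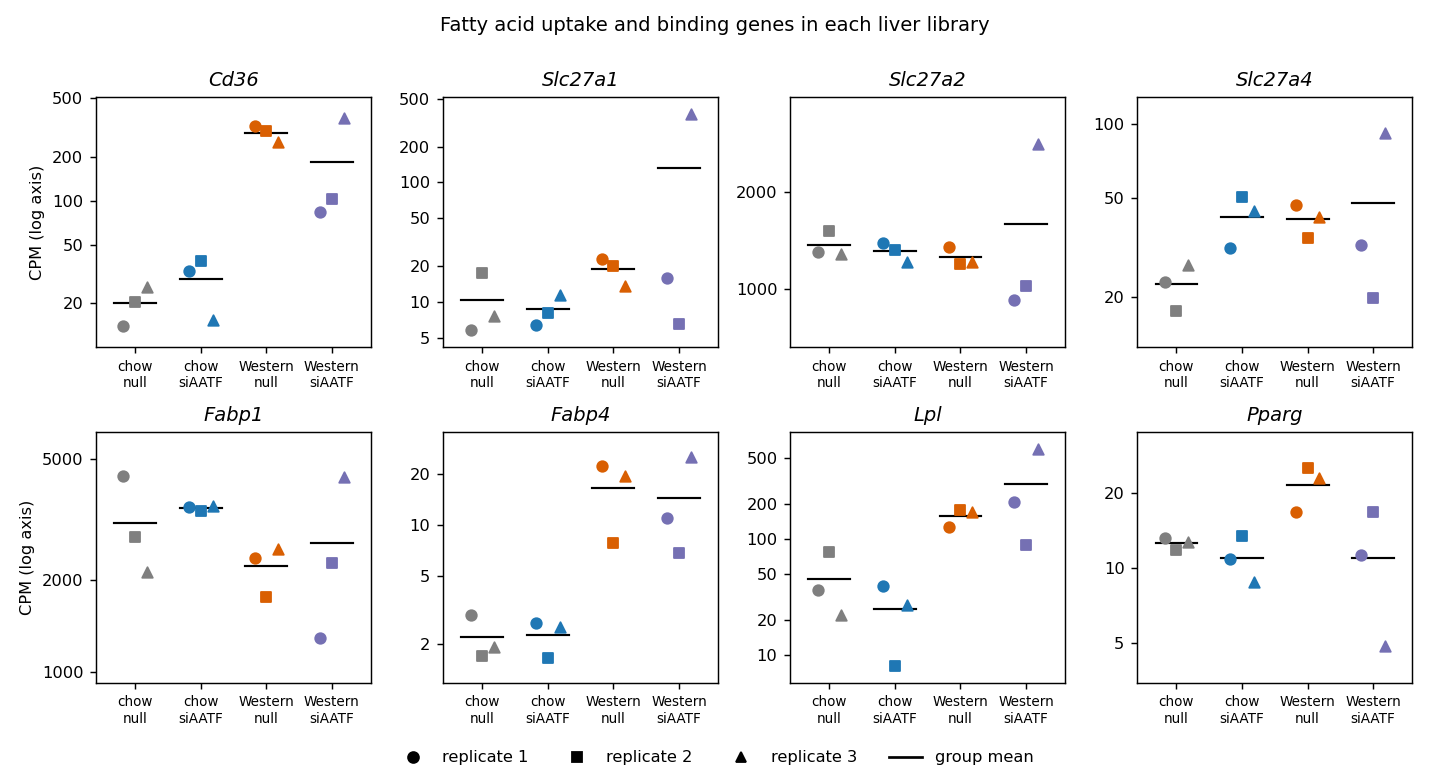
Levels of the 8 tested members in each library (y axis, CPM, log axis; x axis, the 4 groups; circles, squares and triangles are replicates 1, 2 and 3; bars are group means). Cd36, Fabp4 and Lpl lie higher in every Western library than in every chow library. The Western siAATF triangle is the highest point for 6 members and the lowest for Pparg.

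On the Western diet with the null vector, Cd36 and Fabp4 rose, and the other 6 members did not pass the test. Cd36 is the scavenger receptor that takes up long-chain fatty acids and oxidised lipoproteins (chr5:17986688-18093957, minus strand). It stood at 14.1, 20.3 and 26.0 CPM in chow null and at 323, 301 and 251 CPM in Western null. All 3 Western null libraries lay above all chow null libraries by a wide gap. The mean went from 20.1 ± 5.99 (SD, n = 3) to 292 ± 36.8 CPM, a log2 fold change of 3.85 ± 0.55 (SE; 14.4-fold; edgeR quasi-likelihood test, adjusted p = 0.000684). Fabp4, the fatty acid binding protein of fat and macrophages (chr3:10269402-10273676, minus strand), stood at 2.97, 1.69 and 1.92 CPM in chow null and at 22.2, 7.84 and 19.4 CPM in Western null. Its chow values rest on few reads, 26, 3 and 22 counts, and Western null replicate 2 was the lowest of its group, still above all chow null libraries. The log2 fold change of Fabp4 was 2.83 ± 0.51 (7.12-fold; edgeR, adjusted p = 0.00202). Of 8 members, 2 were called, both higher, where 13.2% of all tested genes were called and 6.44% were called higher.

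Lpl, Pparg and Slc27a4 also lay higher in all 3 Western null libraries than in all chow null libraries, without passing the adjusted threshold. Counting Cd36 and Fabp4, 5 of 8 members did so, where 17.7% of all tested genes did. Lpl encodes lipoprotein lipase (chr8:69333207-69359584, plus strand) and stood at 36.6, 76.2 and 22.1 CPM in chow null and 126, 177 and 169 CPM in Western null. The chow null values were the more scattered of the 2 groups, with replicate 2 highest. The log2 difference was 1.85 ± 0.75 (edgeR, adjusted p = 0.136), and it passed the test when the 2 groups were fitted alone (1.87, edgeR, adjusted p = 0.00158). Pparg (chr6:115337840-115467365, plus strand) stood at 13.3, 11.9 and 12.7 CPM in chow null and 16.8, 25.2 and 23.0 CPM in Western null, a log2 difference of 0.78 ± 0.34 (edgeR, adjusted p = 0.136). Its span takes in all introns, so its isoforms are not separated. Slc27a4, which encodes the transporter FATP4 (chr2:29692646-29707534, plus strand), stood at 23.0, 17.5 and 26.9 CPM and 46.9, 34.4 and 41.9 CPM, a log2 difference of 0.84 ± 0.42 (edgeR, adjusted p = 0.197; 0.0294 with the 2 groups alone and 0.0313 without Western siAATF replicate 3, where 18.2% of genes were called; 12.7% were called without replicate 1).

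The 2 most abundant members did not pass the test on the diet. Fabp1, the liver fatty acid binding protein (chr6:71176863-71182018, plus strand), stood at 4390, 2766 and 2126 CPM in chow null and 2367, 1766 and 2523 CPM in Western null. The groups overlapped, and the log2 difference was -0.48 ± 0.37 (95% interval -1.26 to 0.30; edgeR, adjusted p = 0.415). Slc27a2, which encodes FATP2, the main FATP of hepatocytes and also an acyl-CoA synthetase of peroxisomes (chr2:126394944-126430163, plus strand), stood at 1302, 1510 and 1288 CPM and 1353, 1193 and 1215 CPM. Its log2 difference was -0.12 ± 0.34 (95% interval -0.84 to 0.59; edgeR, adjusted p = 0.843). Slc27a1, which encodes FATP1, the FATP of muscle and fat (chr8:72021372-72039951, plus strand), stood at 5.83, 17.5 and 7.57 CPM and 22.7, 20.1 and 13.6 CPM. Its groups overlapped through chow null replicate 2, and the estimate was wide (0.99 ± 1.34; edgeR, adjusted p = 0.676). Over the 8 members the median log2 difference was 0.92, beside -0.03 over all tested genes.

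**Figure D2:**
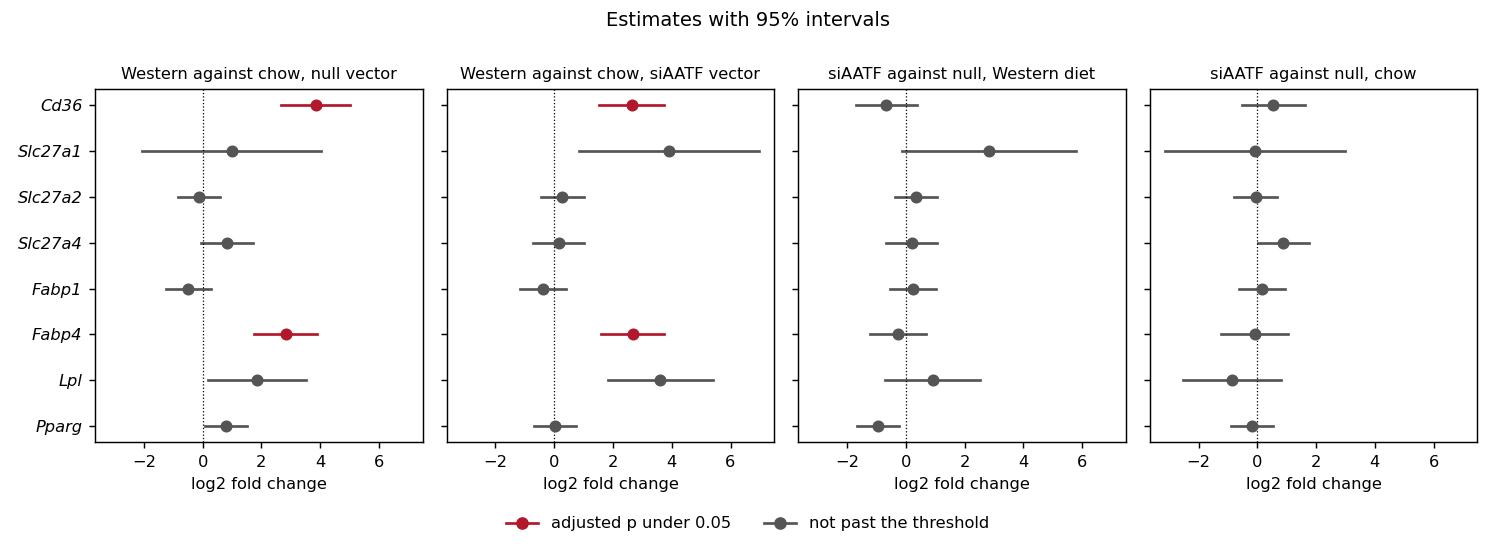
Log2 fold changes of the 8 tested members (points) with 95% intervals (lines) in 4 comparisons, one panel each; red marks an adjusted p under 0.05. Cd36 and Fabp4 are red in both diet panels (3.85 and 2.83 with the null vector, 2.63 and 2.67 with the siAATF vector) and no member is red in the vector panels.

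Per kilobase of span, introns included, the members differed widely in level. In Western null, Fabp1 stood at 430 CPM per kb of span, Slc27a2 at 35.6, Lpl at 5.96, Fabp4 at 3.86, Slc27a4 at 2.76, Cd36 at 2.72, Slc27a1 at 1.01 and Pparg at 0.167. In chow null, Cd36 stood at 0.188 CPM per kb and Fabp4 at 0.513, both below Slc27a4 (1.51). In Western null Cd36 was still just below Slc27a4, while Fabp4 was above it. The order is of counts over whole spans, and a gene with long introns such as Cd36 or Pparg has its exon reads divided by a long span.

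Macrophage, endothelial and stellate cell markers moved with the diet too. Of 18 macrophage markers, 11 were higher and 1 lower in Western null, and their summed level ran from 354 to 564 CPM in chow null and from 1050 to 1490 CPM in Western null. Of 14 tested endothelial markers 5 were higher (438 to 508 CPM against 623 to 753 CPM), and of 12 stellate cell markers 6 were higher (246 to 327 CPM against 695 to 965 CPM). Of 14 hepatocyte markers, 6 were lower. Over all tested genes, 13.2% were called in this contrast and 6.44% were called higher. Adipocyte markers (11 genes) summed to 0.522 to 8.47 CPM in chow null and 23.9 to 43.9 CPM in Western null. Most of the latter came from Cidea (18.1 to 40.5 CPM), which is also on the list of lipid storage genes. In Western null replicate 1, 9 of the 11 were at 0, Adipoq, Lep and Plin1 among them, against 8 and 7 in replicates 2 and 3. Replicate 1 had the lowest total count of the 12 libraries, 1646853. In whole liver, a change in the number of cells of a type and a change in RNA per cell cannot be told apart, and the part of these cells in the rise of Cd36, Fabp4 and the level of Lpl was not tested.

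**Figure D3:**
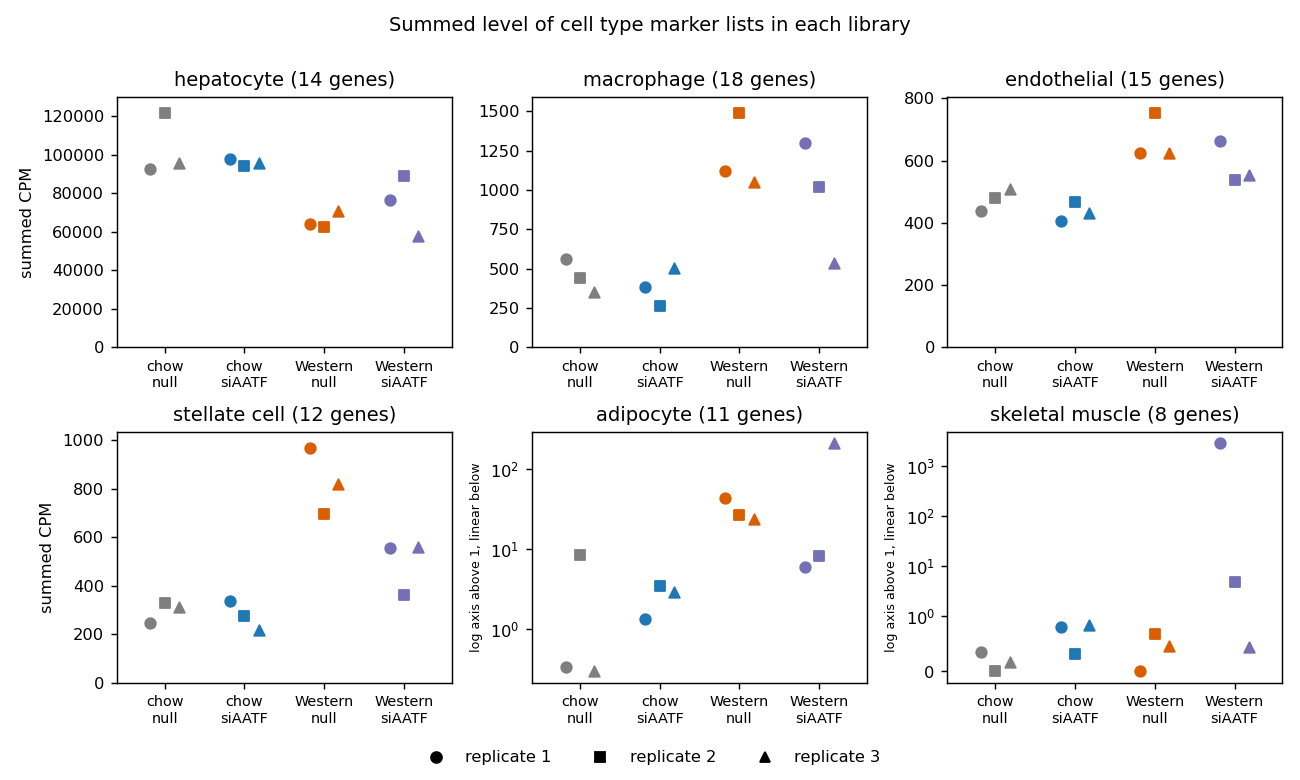
Summed CPM of 6 lists of cell type markers in each library (x axis, groups; symbols, replicates; the adipocyte and muscle panels have a log axis above 1 CPM). Macrophage sums are 354 to 564 CPM in chow null and 1050 to 1490 CPM in Western null, the muscle sum stands at 2850 CPM in Western siAATF replicate 1, and the adipocyte sum at 209 CPM in Western siAATF replicate 3.

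With the siAATF vector the same diet contrast again called 2 members, and these were Cd36 and Fabp4. Cd36 stood at 33.3, 39.2 and 15.5 CPM in chow siAATF and 83.8, 103 and 366 CPM in Western siAATF (2.63 ± 0.51; edgeR, adjusted p = 0.0269). Fabp4 stood at 2.65, 1.66 and 2.51 CPM and 11.1, 6.81 and 25.1 CPM (2.67 ± 0.51; edgeR, adjusted p = 0.0145). For both genes all Western siAATF libraries lay above all chow siAATF libraries, with replicate 3 highest. Of all tested genes 1.48% were called in this comparison and 0.763% were called higher. Without Western siAATF replicate 3, Cd36 differed by 1.62 (edgeR, adjusted p = 0.00468) and Fabp4 by 2.01 (edgeR, adjusted p = 0.0141), with 5.95% of genes called. Without replicate 1 both were called as well (edgeR, adjusted p = 0.00987 and 0.0336), with 0.557% of genes called. The Cd36 call was lost without any of the chow siAATF replicates (edgeR, adjusted p from 0.0788 to 0.0884) and the Fabp4 call without chow siAATF replicate 2 (edgeR, adjusted p = 0.128) or replicate 3 (edgeR, adjusted p = 0.0522).

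Lpl stood at 39.2, 8.06 and 26.8 CPM in chow siAATF and 209, 88.7 and 593 CPM in Western siAATF. The 3 Western libraries lay above the 3 chow libraries, as they did for Cd36 and Fabp4, so 3 of 8 members were apart and higher where 9.24% of all tested genes were. The log2 difference of Lpl was 3.62 ± 0.80 (edgeR, adjusted p = 0.0579). It passed without Western siAATF replicate 2 (edgeR, adjusted p = 0.0374) and with DESeq2 (adjusted p = 0.000490). Lpl is also a muscle gene, and replicate 1, which held the muscle markers, stood at 209 CPM. Fabp3, the fatty acid binding protein of heart and skeletal muscle, stood at 27.4 CPM in that library and at 44.0 CPM in replicate 3, where 1 count of the 8 muscle markers was found, and at no more than 4.44 CPM elsewhere. What muscle RNA adds to Lpl in replicate 1 was not tested.

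No member was called between Western siAATF and Western null, where 0.871% of all tested genes were called by edgeR. At an unadjusted p under 0.05 there was 1 member, Pparg. It stood at 11.3, 16.8 and 4.84 CPM in Western siAATF, against 16.8, 25.2 and 23.0 CPM in Western null. The groups overlapped at 16.8 CPM, and the value of 4.84 CPM rests on 11 counts. The log2 difference was -0.95 ± 0.34 (edgeR, adjusted p = 0.284). Cd36 differed by -0.67 ± 0.48 (edgeR, adjusted p = 0.686), Fabp4 by -0.25 ± 0.45, Lpl by 0.91 ± 0.72, Slc27a1 by 2.83 ± 1.30, Slc27a2 by 0.34 ± 0.34, Slc27a4 by 0.20 ± 0.41 and Fabp1 by 0.25 ± 0.37. The 95% intervals show how little the 3 spread libraries fix: that of Cd36 ran from -1.71 to 0.37 and that of Slc27a1 from -0.13 to 5.78.

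Most of these estimates depended on Western siAATF replicate 3. Those of Pparg (-0.66) and Fabp4 (-0.90) stayed below 0 without it, and Fabp4 turned to 0.095 without replicate 2. In replicates 1 and 2 Cd36 stood below all Western null libraries, and in replicate 3 above them, 3.92 times the mean of the other 2 replicates. Without replicate 3, Cd36 was lower in Western siAATF by a log2 difference of -1.65 (edgeR, adjusted p = 0.00703), with 3.34% of genes called. The 2 libraries left were replicate 1, which held the muscle markers, and replicate 2, with an 18S share of 50.8%. Slc27a1 stood at 15.9, 6.58 and 374 CPM, the last from 850 counts and 33.3 times the mean of the other 2, and its estimate turned from 2.83 to -0.72. Slc27a2 stood at 921, 1020 and 2834 CPM (0.34 turned to -0.38), Slc27a4 at 32.5, 19.7 and 92.0 CPM (0.20 turned to -0.67), Fabp1 at 1286, 2279 and 4374 CPM (0.25 turned to -0.33) and Lpl turned from 0.91 to -0.10, none of them past the threshold. Without replicate 1 no member was called, with 0.347% of genes called, and Cd36 stood at -0.32.

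**Figure D4:**
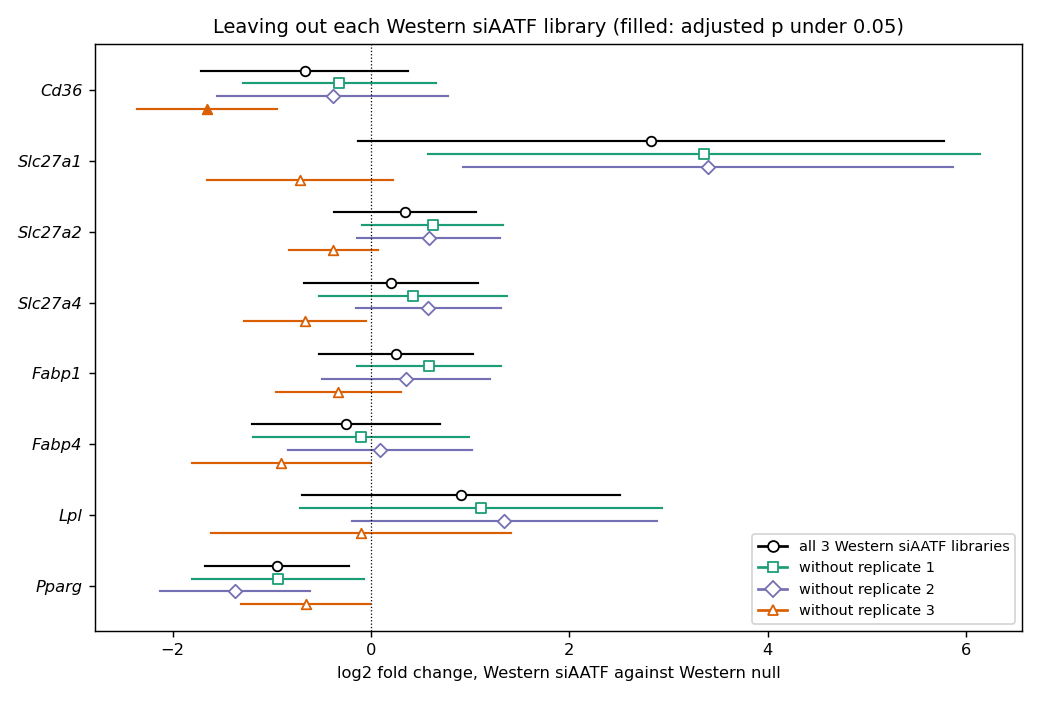
Log2 fold change of each member between Western siAATF and Western null (x axis) with all libraries (black) and without each Western siAATF replicate (colours), with 95% intervals. Without replicate 3 all 8 estimates are below 0 and Cd36, at -1.65, is the filled point that passes the threshold; with all libraries 5 of the 8 are above 0.

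On chow, the siAATF and null libraries gave no called member, as no gene of the 11934 was called by edgeR (0%; 1 gene by DESeq2). At an unadjusted p under 0.05 there was 1 member, Slc27a4, at 31.5, 50.6 and 44.3 CPM in chow siAATF, all above the chow null libraries. Its log2 difference was 0.89 ± 0.41 (edgeR, adjusted p = 1), and it was the 1 member of 8 apart and higher, where 4.25% of all tested genes were. Cd36 differed by 0.55 ± 0.50 (95% interval -0.53 to 1.63) and Lpl by -0.86 ± 0.75, both with overlapping groups. Fabp1 stood at 3480, 3368 and 3504 CPM in chow siAATF, a narrow range inside that of chow null. Pparg (10.8, 13.5 and 8.78 CPM) and Slc27a2 (1392, 1322 and 1216 CPM) overlapped with chow null as well.

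The difference between the 2 diet contrasts, tested as an interaction of diet and vector, passed for none of the 8 members, with 0.193% of all tested genes called. The interaction was -1.22 ± 0.70 for Cd36 (edgeR, adjusted p = 0.623), 1.77 ± 1.04 for Lpl, 2.92 ± 1.85 for Slc27a1 and -0.76 ± 0.48 for Pparg. Without Western siAATF replicate 3 it passed for Cd36 (-2.24; edgeR, adjusted p = 0.00973) and Slc27a4 (-1.58; edgeR, adjusted p = 0.0394), with 2.38% of genes called. The libraries left in that group were replicate 1, with the muscle markers, and replicate 2, with an 18S share of 50.8%. Without replicate 1 the interaction passed for no member, with 0.129% called.

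By group mean, Cd36 and Fabp4 ran from Western null through Western siAATF and chow siAATF to chow null, and only the diet step in the middle separated neighbours without overlap. Lpl ran from Western siAATF through Western null and chow null to chow siAATF, again apart only at the diet step. Pparg was highest in Western null, apart from chow null and chow siAATF, and all other pairs of groups overlapped. Slc27a4 was lowest in chow null, apart from Western null and chow siAATF, and all other pairs of groups overlapped. For Fabp1, Slc27a1 and Slc27a2 no neighbouring groups were apart.

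Among 15 other tested genes of fatty acid uptake, activation and binding, 1 was higher and 1 lower in Western null. In that contrast 13.2% of all tested genes were called and 6.44% were called higher. Flot1, a membrane raft protein, rose by 0.84 ± 0.27 (edgeR, adjusted p = 0.0491), and Acsl3, an acyl-CoA synthetase of lipid droplets, fell by 1.28 on the log2 scale (edgeR, adjusted p = 0.0383). Their median was -0.22, beside -0.03 for all tested genes. Of 19 genes of lipoprotein lipid uptake, 1 was higher and 1 lower, with a median of 0.10. Gpihbp1, which anchors lipoprotein lipase to the capillary wall, rose from 2.79 ± 1.45 to 11.2 ± 1.23 CPM (1.81 ± 0.40; edgeR, adjusted p = 0.00790). Fabp2, Angptl8, Apoc2 and Cyp4a14 lie inside other genes and were not measured.

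Of 20 partners and coregulators of PPARG, none was higher and 2 were lower in Western null: the coactivator Ncoa2 (162 ± 44.1 to 64.9 ± 15.5 CPM; -1.32 ± 0.24) and the corepressor Ncor1 (203 ± 37.3 to 117 ± 17.9 CPM; -0.80 ± 0.24). Of 18 genes of lipid storage classed as PPARG targets, 2 were higher and 1 lower, with a median of 0.84. The lipid droplet genes Plin4 (17.6 ± 10.8 to 193 ± 8.29 CPM; 3.45 ± 0.66; edgeR, adjusted p = 0.00661) and Cidec (6.78 ± 2.79 to 142 ± 4.33 CPM; 4.47 ± 1.08; edgeR, adjusted p = 0.0275) rose, and Pck1, of gluconeogenesis and glycerol synthesis, fell by 0.96 on the log2 scale. Of 19 PPARA targets, 2 were higher and none lower, with a median of 0.60: Vnn1, a pantetheinase (2.61 ± 0.59), and Acadm, an acyl-CoA dehydrogenase of mitochondrial oxidation (1.10 ± 0.29). These counts in Western null stand beside 13.2% of all tested genes called in that contrast, with 6.44% called higher. With all libraries, none of the genes on these 5 lists was called in the other 4 comparisons.

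These counts moved with single libraries. In Western null against chow null, leaving out 1 library gave 0 to 8 PPARA targets, 1 to 8 lipid storage genes, 1 to 5 PPARG partners, 0 to 3 other uptake and binding genes and 1 to 3 lipoprotein uptake genes. Without Western siAATF replicate 3, a library outside that contrast that enters the shared estimate of the spread, 8 PPARA targets were higher and none lower, and 7 lipid storage genes were higher and 1 lower, where 18.2% of all genes were called. No PPARA target was called without chow null replicate 3, and 1 was called without Western null replicate 1 or 2. Of the lipid storage genes, 1 was called without chow null replicate 2 or 3 or any of the Western null replicates, and 5 without Western siAATF replicate 2. Of the PPARG partners, 5 were called without chow null replicate 2, 4 without Western siAATF replicate 3, and 1 without chow null replicate 1 or 3, chow siAATF replicate 2 or 3, or any of the Western null replicates. None of the other uptake and binding genes was called without chow null replicate 1 or 3 or any of the Western null replicates, and 1 without chow null replicate 2 or any of the chow siAATF replicates. Of the lipoprotein uptake genes, 1 was called without Western null replicate 1 or 2.

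Western siAATF replicate 3 was often the highest library in these lists as well, most of all for PPARA targets and lipid storage genes. It was the highest of 12 libraries for 18 of 19 PPARA targets, for 11 of 18 lipid storage genes, for 7 of 15 other uptake and binding genes, for 7 of 19 lipoprotein uptake genes and for 6 of 20 PPARG partners. In the same order of lists it was the lowest for 0, 1, 2, 1 and 3 genes. Of all tested genes, 12.7% were highest there and 12.7% lowest. Replicate 2 was the highest for 5 of the 15 other uptake and binding genes. Ehhadh, an enzyme of peroxisomal oxidation, stood at 151, 171 and 8144 CPM in Western siAATF and between 635 and 812 CPM in Western null. Acsl1, the main acyl-CoA synthetase of liver, stood at 591, 625 and 5633 CPM and between 1068 and 1245 CPM. Cidec stood at 5.97, 12.3 and 131 CPM, so that replicates 1 and 2 were near chow levels and replicate 3 near the Western null levels of 139 to 147 CPM. These 3 genes were chosen for display after their values were seen.

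Without that replicate, 8 of 18 lipid storage genes and 7 of 19 PPARA targets were lower in Western siAATF than in Western null and none higher, where 3.34% of all genes were called. The medians were -1.53 and -0.89, beside 0.02 for all tested genes. Called genes of the other lists went both ways. Of 15 other uptake and binding genes, 1 was higher and 1 lower. Of 20 lipoprotein uptake genes, 1 was higher and 1 lower, and no PPARG partner was called. The Western siAATF libraries left were replicate 1, with the muscle markers, and replicate 2, with an 18S share of 50.8%. Cidec differed by -3.98 ± 0.42 (edgeR, adjusted p = 1.33e-05), Plin2, the main droplet coat protein of hepatocytes, by -1.80 ± 0.26 (edgeR, adjusted p = 0.000276), Acaa1b, a peroxisomal thiolase, by -2.52 ± 0.28 and Ehhadh by -2.21 ± 0.27. Acsl1, Angptl4 and Plin2 each stand on 2 of the lists. Without replicate 1 instead, no gene of the 5 lists was called in this comparison, and without replicate 2 there was 1, an uptake and binding gene that was higher.

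The other comparisons with Western siAATF also changed without replicate 3, again with replicates 1 and 2 left in that group. Between Western siAATF and chow siAATF, where 5.95% of all genes were called, 4 of 18 lipid storage genes and 4 of 19 PPARA targets were lower and none higher, with medians of -0.60 and -0.35. Plin2 differed by -1.63 ± 0.26 (edgeR, adjusted p = 0.000880) and Acot1, an acyl-CoA thioesterase, by -2.53 ± 0.50 (edgeR, adjusted p = 0.00592). Of the other lists, 1 uptake and binding gene was lower, and 1 of 20 lipoprotein uptake genes was higher and 2 lower. Without replicate 1, Vnn1 was the gene of the lists that was called (2.36 ± 0.46; edgeR, adjusted p = 0.0340). Without replicate 2, 1 uptake and binding gene and 1 PPARA target were called higher. For the interaction without replicate 3, where 2.38% of all genes were called, 7 lipid storage genes and 4 PPARA targets had a lower diet difference with siAATF and none a higher one, with medians of -1.78 and -0.90. Cidec differed by -4.01 ± 0.54 (edgeR, adjusted p = 0.000316) and Acaa1b by -3.11 ± 0.36 (edgeR, adjusted p = 7.68e-05). Of the lipoprotein uptake genes, 1 was higher and 1 lower. Without replicate 1, no gene of the 5 lists was called for the interaction.

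The adipocyte sum was 209 CPM in replicate 3, made by Cidea (105 CPM) and Cfd (102 CPM) with Adipoq, Lep, Plin1 and Retn at 0, and 5.97 and 8.17 CPM in replicates 1 and 2. Its macrophage sum was 537 CPM, against 1300 and 1017 CPM in the other 2. The part of adipose tissue or of cell makeup in the levels of replicate 3 was not tested.

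**Figure D5:**
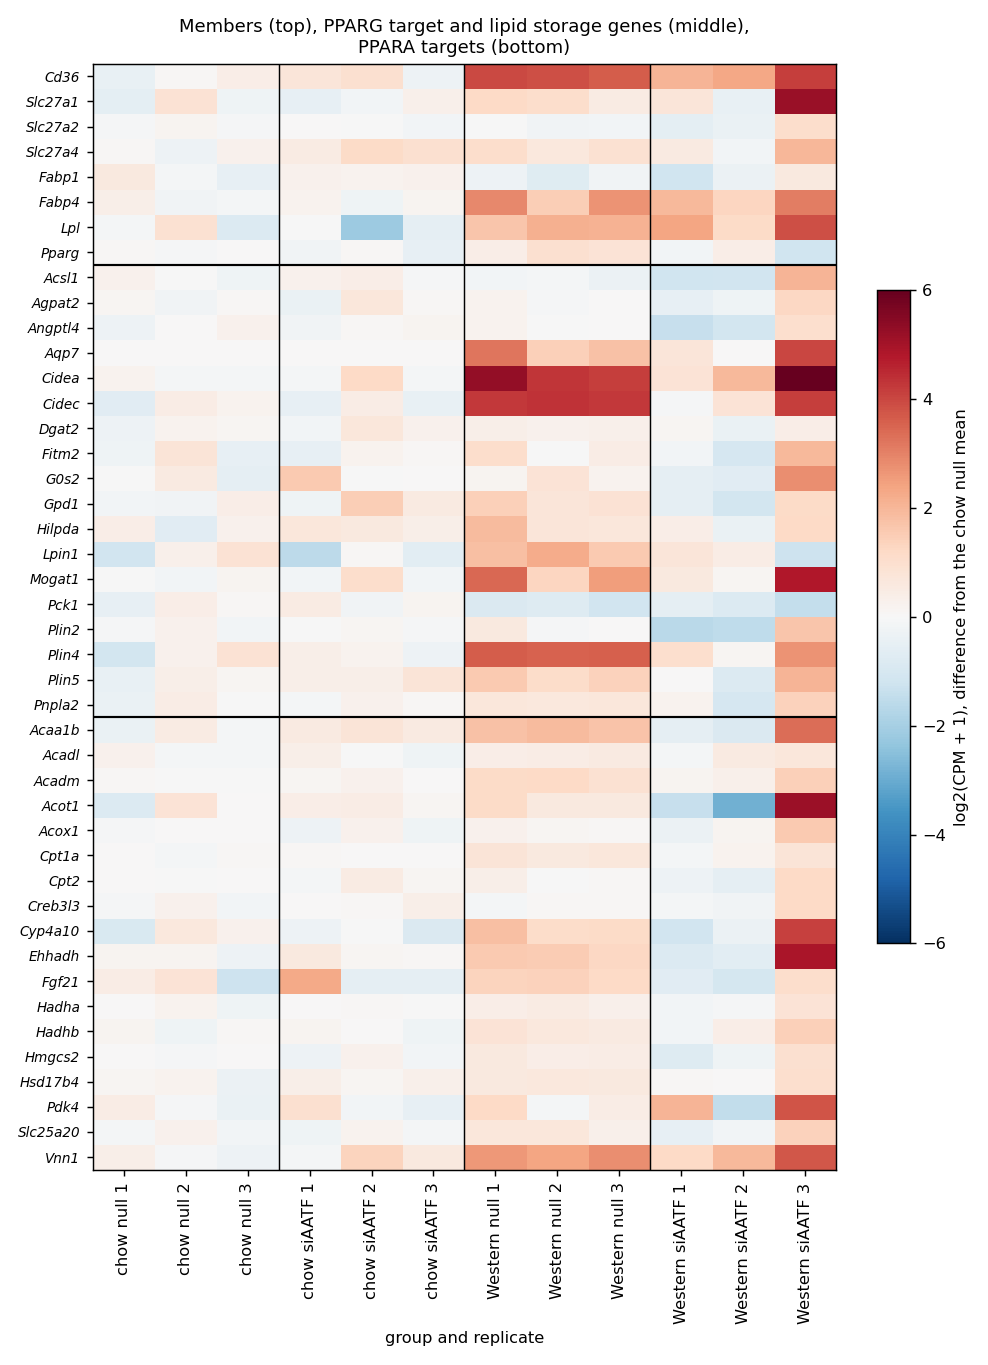
Difference of each library from the chow null mean, in log2(CPM + 1), for the members (top), lipid storage genes (middle) and PPARA targets (bottom); columns are libraries by group, red is higher and blue lower. In the last column, Western siAATF replicate 3, Ehhadh (8144 CPM) and Cidea (105 CPM) are among the deepest red, while the 2 columns before it are pale or blue for most lipid storage genes and PPARA targets.

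The genes most like each member over the 12 libraries are given as a description, by Pearson's r of log2 CPM. The libraries share diet groups and 1 library that stands apart, and the genes were the closest of 11934. For Cd36 they were Osbpl3 (0.97), Cidea (0.95) and Tmem120a (0.95), and for Fabp4 they were Pmepa1 (0.94), Ccdc80 (0.94) and Tnc (0.94), of which Ccdc80 and Tnc encode matrix proteins. For Slc27a2 they were Acsl1 (0.95), Snrk (0.94) and Pank1 (0.94), and for Slc27a1 Lamb3 (0.96), Serpinb1a (0.93) and Oplah (0.93). For Pparg they were Gas2l3 (0.98), Gpr137b (0.94) and Ugp2 (0.93), for Slc27a4 Naxe (0.95), Poll (0.94) and Ptpa (0.93), for Lpl Fam76a (0.91), Parp2 (0.91) and Gramd1b (0.91), and for Fabp1 Chchd10 (0.89), Adra1a (0.87) and Tgoln1 (0.87). Among the members themselves, Cd36 and Fabp4 had an r of 0.90 over the 12 libraries and 0.35 after the group means were taken out. Slc27a1 and Slc27a2 had 0.79 and 0.92, and Pparg and Slc27a1 had -0.54 and -0.91, and Western siAATF replicate 3 had the highest Slc27a1 and Slc27a2 and the lowest Pparg of the 12 libraries.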

How the data were processed

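RNA from mouse liver was sequenced in 12 libraries (4 groups of 3) with SMART-Seq library preparation (the labels' protocols). The authors deposited a table of raw counts per gene. The submitters' processing notes name STAR 2.7.11, featureCounts 2.0.1, DESeq2 1.42.0, R 4.3.2 and the build GRCm39. Strand handling is not given in the sources used here. Gene lengths in the table equal whole spans, so introns were counted, and genes lying inside another gene are at 0. Of 50499 genes, 28210 were at 0 in all libraries. Depth was 1646853 to 13469819 counts. Reads carry no molecular identifiers, so the floor of 3 counts covers counting error only. Replicate pairs differed by more than sampling noise, and none was merged.

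From the counts, edgeR 4.0.16 (R 4.3.3) fitted 1 quasi-likelihood model over all 12 libraries with TMM sizes, filterByExpr by group (11934 genes kept) and robust dispersions, with 8 residual degrees of freedom. P-values were adjusted by Benjamini-Hochberg over all tested genes, with a threshold of 0.05. Levels are CPM, and log2 CPM used a prior count of 2. The fit was run on simulated data with the same dispersion for every gene and no library set apart. That run does not cover the spread between these libraries. Alternatives were RLE sizes, DESeq2 1.42.0, limma 3.58.1 voom, no filter, compared groups only, replicate number as a block, no 18S gene, no libraries over 25% 18S, and each library left out.

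The members and gene lists were chosen with earlier results of these data known. Named genes are all members, Aatf, up to 4 called genes per pathway list and comparison by adjusted p, leading cell type markers and, per member, the 3 most correlated tested genes without a predicted-model symbol. Exceptions are marked, and 1 gene the rule picks is left out here. Promoter windows come from RefSeq tables on GRCm38.p6.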

Additional observations from a re-analysis of the deposited data

How the results depend on the processing

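The rise of Cd36 and Fabp4 on the Western diet with the null vector kept its direction under every alternative, and both calls held when any 1 library was left out. The Cd36 call was lost without the libraries over 25% 18S (3.51; edgeR, adjusted p = 0.119), which leaves chow null with 1 library assumed to vary like the other groups. In that contrast the members called numbered 4 with no filter and with the compared groups only and 1 without the libraries over 25% 18S, against 2, and all genes called 1969 of 22289, 1998 of 11730 and 1031 of 12934 tested in those settings, against 1577 of 11934. Leaving out 1 library gave 2 to 3 members and 658 to 2250 genes.

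Between Western siAATF and Western null, no filter called 1 member, and the genes called were 285 by DESeq2, 572 with no filter and 53 with the compared groups only, against 104. Leaving out 1 library gave 0 to 1 members and 26 to 413 genes. Between Western siAATF and chow siAATF, DESeq2 and no filter called 4 members each, the compared groups only 0 and the libraries under 25% 18S 1, with 513, 836, 17 and 103 genes against 177. Leaving out 1 library gave 0 to 3 members and 34 to 737 genes. On chow, DESeq2 called 1 gene and no filter 33, and leaving out 1 library gave 0 members and 0 genes. For the interaction, no filter called 2 members, and the genes called were 124 by DESeq2, 331 with no filter and 3 without the libraries over 25% 18S, against 23. Leaving out 1 library gave 0 to 2 members and 2 to 295 genes.

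Deviations from the group means correlated between -0.378 and 0.259 for same-numbered libraries of different groups. For differently numbered libraries the range was -0.313 to 0.463. Pairing by replicate number was not seen, though these correlations cannot exclude it. With the replicate number as a block, 64 genes were called between Western siAATF and Western null, 71 genes and 1 member between Western siAATF and chow siAATF, and 14 genes for the interaction. The block turned the sign of Fabp4 on chow (0.19) and of Pparg (-0.014) and Slc27a4 (-0.024) between Western siAATF and chow siAATF, none of them called.

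Other signs that turned were of small, uncalled estimates, and the cause was not tested. With limma-voom these were Slc27a4 (-0.15) between Western siAATF and Western null, Slc27a1 on chow (0.15), Pparg (-0.057) and Slc27a4 (-0.19) between Western siAATF and chow siAATF, and the interactions of Fabp1 (-0.12) and Aatf (0.012). No filter turned Pparg (-0.044) between Western siAATF and chow siAATF. Without the libraries over 25% 18S these were Fabp1 between Western null and chow null (0.090), Fabp4 between Western siAATF and Western null (0.10), Fabp4 (0.070), Slc27a1 (0.37) and Slc27a2 (0.00826) on chow, Pparg between Western siAATF and chow siAATF (-0.41), and the interactions of Fabp1 (-0.36), Fabp4 (0.031) and Aatf (0.00772).

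Leaving out 1 library moved the estimates between Western siAATF and Western null from -0.33 to 0.59 for Fabp1, -0.90 to 0.095 for Fabp4, -0.10 to 1.34 for Lpl, -0.72 to 3.40 for Slc27a1, -0.38 to 0.62 for Slc27a2, -0.67 to 0.58 for Slc27a4 and -0.089 to 0.19 for Aatf. On chow the ranges were -0.038 to 0.50 for Fabp1, -0.23 to 0.22 for Fabp4, -0.39 to 0.36 for Slc27a1 and -0.10 to 0.024 for Slc27a2. Between Western siAATF and chow siAATF they were -0.41 to 0.29 for Pparg, -0.47 to 0.55 for Slc27a2 and -0.74 to 0.52 for Slc27a4. For the interaction they were -0.51 to 0.42 for Fabp1, -0.83 to 0.19 for Fabp4, -0.65 to 3.47 for Slc27a1, -0.35 to 0.68 for Slc27a2 and -0.29 to 0.052 for Aatf.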
